A study of Mus musculus with 60 samples.

Results

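Myelin is the sheath that oligodendrocytes wrap around axons in the central nervous system. Its proteins are made late in the lineage, after a dividing precursor has left the cell cycle and passed through a short premyelinating stage, and in the rodent forebrain the sheaths are laid down over the weeks after birth. SOX10 and MYRF are the transcription factors best known for switching on the myelin genes. The 9 genes described here are Mbp, Cnp, Mobp, Cldn11, Mal, Mag, Mog, Ugt8a and Opalin. They were chosen by name and found through the Ensembl identifiers of the deposited table, which held all 9 among its 18088 identifiers, and all 9 were among the 17781 genes that passed the filter on low values.

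The libraries were made from the prefrontal cortex of C57BL/6J mice at postnatal day 25. HT mice carry 1 Tbr1 allele with the K228E change beside 1 wild-type allele, and WT mice carry none. Every pup received its treatment through the milk of its mother from postnatal day 3 to day 24, for 3 weeks, as fluoxetine (an antidepressant that blocks serotonin uptake), lithium (a mood stabilizer) or vehicle. The groups were HT and WT given fluoxetine, HT and WT given lithium, and HT and WT given vehicle, each in males and in females, with 5 libraries in each of 12 groups and 60 in all. The labels name no litter, dam, batch or date, so pups of 1 treated mother may stand behind several libraries, and a mother's treatment and her litter cannot be told apart. The p-values measure the spread between these libraries.

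A library held 23930164 to 36515331 assigned reads, with a median of 28721151. Tbr1 was at 1167 to 5241 (median 4385) in 30 HT libraries and at 845 to 3883 (median 3206) in 30 WT libraries, and reads of the 2 alleles cannot be told apart in gene totals. All values below are reads divided by the size factor of the library, and log2 levels are log2(value + 1). The dissected tissue varied: the mean log2 level of 7 olfactory bulb genes ran from 3.85 to 8.34 in 20 fluoxetine libraries, from 3.27 to 10.44 in 20 lithium libraries and from 5.13 to 11.06 in 20 vehicle libraries. The 10 vehicle males did not overlap the other 50 libraries in Mag relative to the other 8 genes, as given further on, and their mitochondrial share was 6.31% to 8.85%, against an overlapping 4.39% to 7.72% in the others. Treatment and this difference cannot be told apart in males, so values of females are given beside the calls.

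Promoters of 8 of the 9 genes were matched by symbol in the RefSeq table of build GRCm38.p6, in 10 windows because Mag had 3. The gene without a window is Mbp, because windows on its chromosome, 18, were left out of the search. Each window runs from 250 bases before to 50 bases after the annotated start, 300 bases in all. Those of 3 genes are printed, 5′ to 3′ on the strand of the gene, because these genes are the ones the results turn on: Cnp had the highest correlation with the mean of the other 8 and Opalin the lowest, and Ugt8a differed between treatments relative to that mean. Capitals mark matches on either strand to the SOX core ACAAAG or ACAATG and to the Myrf core CTGGNAC.
Cnp, chr11:100574689-100574988, plus strand: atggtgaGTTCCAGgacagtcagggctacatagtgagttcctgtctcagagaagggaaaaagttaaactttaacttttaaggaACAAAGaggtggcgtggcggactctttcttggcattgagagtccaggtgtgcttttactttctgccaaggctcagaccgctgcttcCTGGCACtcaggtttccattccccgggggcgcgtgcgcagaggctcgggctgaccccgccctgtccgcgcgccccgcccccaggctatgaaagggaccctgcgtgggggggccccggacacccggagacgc
Opalin, chr19:41077064-41077363, minus strand: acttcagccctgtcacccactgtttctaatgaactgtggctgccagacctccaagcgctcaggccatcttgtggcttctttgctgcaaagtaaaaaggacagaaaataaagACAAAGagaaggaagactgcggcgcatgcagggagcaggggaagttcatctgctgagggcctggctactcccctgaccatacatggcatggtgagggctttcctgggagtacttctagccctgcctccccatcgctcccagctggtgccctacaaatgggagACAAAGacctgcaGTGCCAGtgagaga
Ugt8a, chr3:125938603-125938902, minus strand: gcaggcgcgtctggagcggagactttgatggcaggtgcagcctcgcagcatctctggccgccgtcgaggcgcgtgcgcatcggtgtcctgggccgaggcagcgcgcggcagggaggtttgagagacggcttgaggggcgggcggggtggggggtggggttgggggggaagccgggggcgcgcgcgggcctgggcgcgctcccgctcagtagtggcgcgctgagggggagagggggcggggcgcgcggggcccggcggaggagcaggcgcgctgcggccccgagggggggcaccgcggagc
The Cnp window held ACAAAG at -167 and CTGGNAC at -243 and -81, counted from the start. The Opalin window held ACAAAG at -139 and 24 and CTGGNAC at 37. The Ugt8a window held neither core, and the Mobp window held 6 matches to ACAAAG. Such letters are common: of 32851 windows in the table, 18.7% held ACAAAG, 12.6% held ACAATG and 19.3% held CTGGNAC. A match is only a run of letters, and no binding was measured.

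Mbp, which encodes the basic protein that compacts the cytoplasmic faces of the sheath, was the most abundant of the 9. On a scale of reads per kilobase of exon, its mean level over the 60 libraries was 6075, followed by Cnp at 2030, Mobp at 1955, Cldn11 at 1678, Mal at 1597, Mag at 925, Mog at 749, Ugt8a at 367 and Opalin at 95.8. Mbp lay above Cnp in 60 of 60 libraries, Mal above Mag in 60, Mog above Ugt8a in 60 and Ugt8a above Opalin in 60. Cnp lay above Mobp in 44 of 60 libraries, Mobp above Cldn11 in 50, Cldn11 above Mal in 44 and Mag above Mog in 52, so the order within these 4 pairs of neighbours varied. The 9 genes together took 0.0832% to 0.515% of all values of a library, with a median of 0.299%.

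Single libraries spanned a wide range. Mobp, a basic protein of compact myelin, ran from 2720 to 28642, which is 10.5 times, and Mal, a proteolipid of myelin membranes, from 1341 to 10917, which is 8.14 times. Mbp spanned 6.82 times, from 13407 to 91412. Cnp, the cyclic nucleotide phosphodiesterase that keeps cytoplasmic channels in the sheath open, spanned the least at 3.27 times, from 3544 to 11586.

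**Figure D1:**
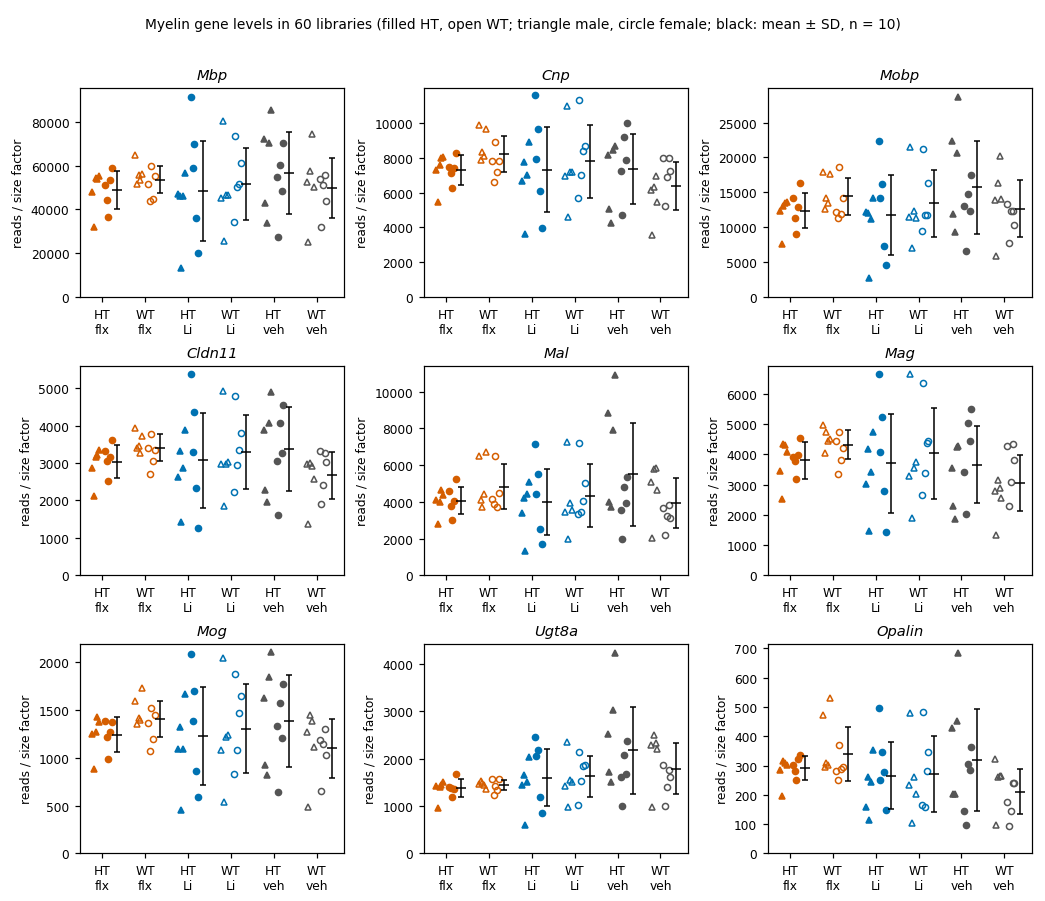
Each panel plots 1 gene; the vertical axis is reads divided by size factor, from 0, and each symbol is 1 library (filled HT, open WT; triangles males, circles females), with mean ± SD (n = 10) in black. Fluoxetine libraries lie in a narrow band in most panels, while lithium and vehicle libraries spread widely; Mobp runs from 2720 to 28642.

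The 9 genes rose and fell together from library to library. Around its group means a gene had an SD of 0.37 (Cnp) to 0.60 (Opalin) on the log2 scale, and after the mean of the other 8 was subtracted this fell to 0.089 (Cldn11, a tight-junction claudin of the sheath) at the least and 0.27 (Opalin, a sialylated membrane protein of oligodendrocytes) at the most. As a description over 60 libraries, Pearson's r between a gene and the mean of the other 8, each taken around its group means, ran from 0.898 for Opalin to 0.992 for Cnp. Of 17772 other genes, 89 had an r above 0.8 with the mean of the 9. Among the 10 most alike were Fa2h (0.982), Ermn (0.977), Gpr37 (0.976), Tmem88b (0.969), Myrf (0.969), Tspan2 (0.968), Adamts4 (0.961) and Trf (0.961). Fa2h hydroxylates the fatty acids of myelin galactolipids and Myrf is the regulator named above. These libraries share tissue content and depth, so the values describe likeness alone.

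The spread itself differed between treatments. The mean log2 level of the 9 genes varied around its group means with an SD of 0.22 in 20 fluoxetine libraries, 0.63 in 20 lithium libraries and 0.53 in 20 vehicle libraries. It ran from 11.26 to 12.26 under fluoxetine, from 10.36 to 12.62 under lithium and from 10.68 to 12.72 under vehicle. The striatum list was also narrow under fluoxetine, at 8.58 to 8.85, against 8.54 to 10.84 under lithium and 8.15 to 10.46 under vehicle. No test of these spreads was made.

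The myelin mean moved with tissue content. In 5 libraries the striatum list mean was 10.33 to 10.84, against 8.15 to 9.49 in the other 55, and these 5 were also the 5 highest in the myelin mean, at 12.41 to 12.72 against 10.36 to 12.35. They were HT vehicle males 4 and 5, HT lithium female 1, WT lithium male 2 and WT lithium female 2, and none was from a fluoxetine group. In a limma fit across all genes with the 12 group means, all 9 genes rose with the striatum list, where 14.1% of all genes tested had a slope of either sign, and the slope was 0.40 (Cnp) to 0.66 (Opalin) log2 units per log2 unit of the list. Without the 5 striatum-rich libraries all 9 still rose, with a median slope of 1.09 and 35.8% of all genes called, and in the 30 females 3 of 9 rose, with 0.709% of all genes called.

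Markers of deep cortical layers moved with the myelin genes as well. All 9 rose with a list of 7 layer 6 and subplate neuron genes, with a median slope of 1.24 and 30.2% of all genes called, and Mobp had the steepest slope at 1.56 (SE 0.15). In females 8 of 9 rose, where 8.9% of all genes were called. This list was added after the data had been seen. All 9 fell along the meninges list, with a median slope of -0.87 beside 30.4% of all genes called, but 1 fell without the 5 striatum-rich libraries, beside 22.4% of all genes, and 0 in females, beside 24.9%. For the olfactory bulb list 0 of 9 had a slope by limma (0 at an unadjusted p under 0.05), with a median of 0.030, although 54.8% of all genes did. For the list of oligodendrocyte precursor genes 0 of 9 had a slope (2 at an unadjusted p under 0.05) beside 62.8% of all genes. In bulk tissue, fewer oligodendrocytes and less RNA per oligodendrocyte cannot be told apart.

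**Figure D2:**
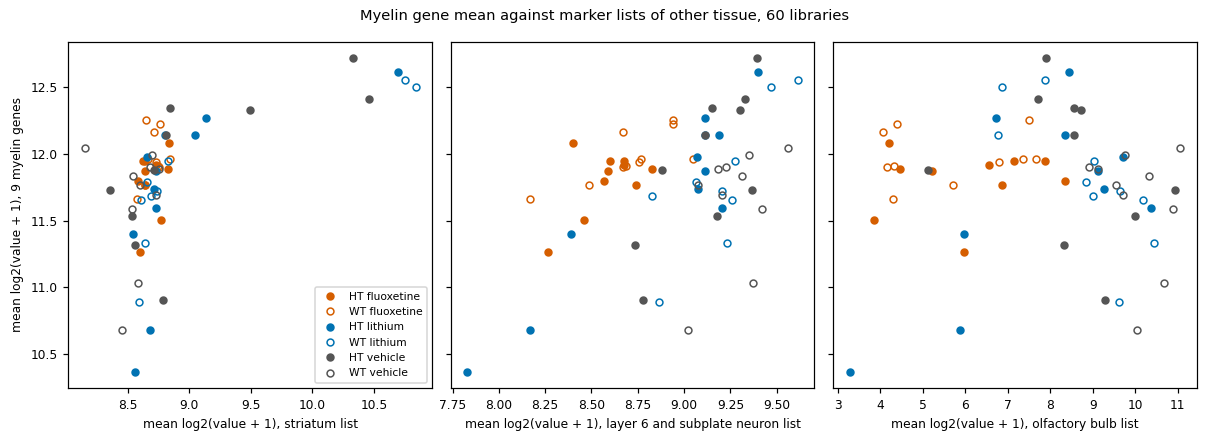
Each point is 1 of 60 libraries; the vertical axis is the mean log2(value + 1) of the 9 myelin genes and the horizontal axes are the mean log2(value + 1) of the striatum list, the layer 6 and subplate neuron list and the olfactory bulb list. The 5 libraries above 10 on the striatum axis are the 5 highest on the vertical axis, at 12.41 to 12.72.

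Genotype did not move any of the 9 genes past the threshold. Between HT and WT mice given vehicle, both sexes, all 9 log2 differences were above 0, with a median of 0.27 and a range of 0.17 (Mbp) to 0.49 (Opalin), and the lowest adjusted p by limma was 0.169. The median was 0.13 without WT vehicle male 2. The count by limma on 60 libraries was 0 of 9 (0 at an unadjusted p under 0.05), beside 0.0337% of all genes called. That share was unstable: with 1 library left out, 1 to 6275 of 17781 genes were called. On 54 libraries edgeR and DESeq2 also called 0 of 9, beside many more of all genes, as given further on. Mbp was at 27627, 57517 and 85394 (lowest, median and highest of 10) in HT vehicle mice, against 25029, 51846 and 74467 in WT vehicle mice. Opalin was at 98.5, 296 and 685 in HT vehicle mice, against 94.4, 241 and 321 in WT vehicle mice. The groups overlapped for both genes. With the striatum list as a covariate the median difference was 0.0086, and HT vehicle males include 2 of the 5 striatum-rich libraries while WT vehicle mice include none. The part of striatal content in this difference was not tested.

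Under either drug all 9 genotype differences were below 0, again within the spread. Between HT and WT mice given fluoxetine all 9 differences were below 0, with a median of -0.18 and an adjusted p of 1 for each by limma, beside 0.0112% of all genes called. Between HT and WT mice given lithium the median was -0.16, the lowest adjusted p was 0.709, and 0.00562% of all genes were called. With 1 library left out that lithium median ran from -0.27 (without HT lithium female 1) to -0.014 (without HT lithium female 5), and HT lithium male 3, WT lithium female 2 and WT lithium males 2 and 3 each moved it by over 1.5 times. Both counts were 0 of 9, with 0 at an unadjusted p under 0.05 and 0 by edgeR and by DESeq2.

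The interaction asks whether a drug changed HT and WT mice by different amounts. For fluoxetine all 9 interaction terms were below 0, with a median of -0.46 and a range of -0.69 (Opalin, SE 0.36, 95% interval -1.42 to 0.04) to -0.31 (Ugt8a, SE 0.27). Adjusted p-values by limma were 0.332 or more. For lithium all 9 were below 0 as well, with a median of -0.44 and a range of -0.61 (Mobp) to -0.31 (Cnp), and an adjusted p of 0.812 for each. Without HT lithium male 3 the lithium median was -0.29. Both interactions had 0 of 9 called, 0 at an unadjusted p under 0.05 and 0 by edgeR and by DESeq2, and 0% of all genes were called by limma. The 2 interactions share the vehicle groups, and a value below 0 in both uses the same HT minus WT vehicle difference. With the striatum list as a covariate the median was -0.20 for fluoxetine and -0.05 for lithium, and the part of striatal content was not tested.

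Fluoxetine against vehicle in WT mice gave 3 of 9 genes that rose and 0 that fell, beside 63.2% of all genes called in either direction, 31.7% higher and 31.5% lower. Opalin was at 251, 297 and 530 (lowest, median and highest of 10) in WT fluoxetine mice, against 94.4, 241 and 321 in WT vehicle mice, a log2 difference of 0.75 (SE 0.26, adjusted p by limma 0.00982). Mag, the adhesion molecule that faces the axon, was at 3368, 4435 and 4963 in WT fluoxetine mice, against 1317, 2985 and 4330 in WT vehicle mice, a difference of 0.57 (SE 0.22, adjusted p by limma 0.0218). Cnp was at 6627, 7974 and 9861 in WT fluoxetine mice, against 3544, 6614 and 7984 in WT vehicle mice, a difference of 0.39 (SE 0.16, adjusted p by limma 0.0325). The groups overlapped for all 3 genes, and the lowest vehicle libraries lay below every fluoxetine library. Without WT vehicle male 2, Opalin differed by 0.60 (adjusted p 0.0359), while Mag at 0.46 (adjusted p 0.0657) and Cnp at 0.31 (adjusted p 0.0917) no longer passed. Without WT vehicle female 2, Opalin differed by 0.65 (adjusted p 0.0290), and Mag at 0.49 (adjusted p 0.0535) and Cnp at 0.34 (adjusted p 0.0728) did not pass. Cnp alone was lost without WT fluoxetine female 3 (adjusted p 0.0561), WT fluoxetine male 1 (adjusted p 0.0533) or WT fluoxetine male 5 (adjusted p 0.0509), and without these 3 libraries together 0 of 9 passed.

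Of the other 6, Mog, the surface glycoprotein of the outer sheath, differed by 0.41 (adjusted p by limma 0.102) and Mbp by 0.16 (adjusted p 0.554), and Ugt8a by -0.25 (adjusted p 0.258). The share of members called was below that of all genes. In WT females alone the count was 0 of 9, beside 39.8% of all genes, and Opalin differed by 0.79 (adjusted p by limma 0.0756), Mag by 0.24 (adjusted p 0.557) and Cnp by 0.13 (adjusted p 0.683). In WT males Mag differed by 0.89 (adjusted p 0.0119) and Cnp by 0.65 (adjusted p 0.0129), beside 58% of all genes called. Without WT vehicle male 2 the male values were 0.67 for Mag (adjusted p 0.0677) and 0.49 for Cnp (adjusted p 0.0705). The male effect minus the female effect passed for 0 of 9 genes in each of the 11 comparisons. For fluoxetine against vehicle it passed for 26.8% of all genes in WT mice and 23.7% in HT mice, for lithium against vehicle for 27.8% in WT mice and 26.4% in HT mice, and for 0% in the other 7. Without HT lithium female 5 it passed for 3 members. With the olfactory bulb list as a covariate the WT count was 0, and the difference was 0.63 for Mag (adjusted p 0.124), 0.47 for Cnp (adjusted p 0.120) and 0.45 for Opalin (adjusted p 0.389).

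Fluoxetine against vehicle in HT mice gave 0 genes that rose and 1 that fell, Ugt8a, beside 40.8% of all genes called in either direction, 20.2% higher and 20.6% lower. Ugt8a encodes the enzyme that puts galactose on ceramide to make galactocerebroside, the characteristic lipid of myelin. It was at 964, 1399 and 1681 (lowest, median and highest of 10) in HT fluoxetine mice, against 1005, 1902 and 4235 in HT vehicle mice, a log2 difference of -0.56 (SE 0.19, adjusted p by limma 0.0177). The groups overlapped, and the highest vehicle libraries lay above every fluoxetine library. Without HT vehicle male 5, which held the 4235, the difference was -0.46 (adjusted p 0.0536). It was -0.47 with the olfactory bulb list as a covariate (adjusted p 0.111), -0.38 with the striatum list (adjusted p 0.0541) and -0.37 without the 5 striatum-rich libraries (adjusted p 0.117). In HT males Ugt8a fell by 0.86 (adjusted p 0.00928), beside 41.4% of all genes, and without HT vehicle male 5 the difference was -0.66 (adjusted p 0.0594). In HT females 0 of 9 passed, beside 0% of all genes, and Ugt8a differed by -0.26 (adjusted p 0.558).

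Lithium against vehicle gave 0 of 9 in WT mice, with a median of 0.22, beside 42.7% of all genes called, and 0 of 9 in HT mice, with a median of -0.22, beside 23.2%. With 1 library left out the WT median ran from 0.076 (without WT vehicle male 2) to 0.35 (without WT lithium male 3), and WT lithium male 2 and WT vehicle female 2 also moved it by over 1.5 times. The HT median ran from -0.34 (without HT vehicle female 2) to -0.073 (without HT lithium male 3), and HT lithium female 5 and HT vehicle male 5 also moved it by over 1.5 times. At an unadjusted p under 0.05 the counts were 0 in WT mice and 2 in HT mice, and edgeR and DESeq2 on 54 libraries called 0 in both. In HT males alone 3 genes fell by limma: Mal by 0.94 (adjusted p 0.0251), Mobp by 0.91 (adjusted p 0.0376) and Ugt8a by 0.84 (adjusted p 0.0118), beside 36.9% of all genes, and in HT females 0 fell, beside 0.0169%, with differences of 0.017 for Mal (adjusted p 0.985), -0.13 for Mobp (adjusted p 0.888) and -0.052 for Ugt8a (adjusted p 0.944). Without HT lithium male 3 none of these 3 calls held, with differences of -0.60 for Mal (adjusted p 0.169), -0.47 for Mobp (adjusted p 0.291) and -0.56 for Ugt8a (adjusted p 0.104), and the same held without HT vehicle male 5, with adjusted p-values of 0.104, 0.136 and 0.0745 in that order. Without HT vehicle male 1 or HT vehicle male 4, Mal and Mobp did not pass. Fluoxetine against lithium gave 0 of 9 in both genotypes (0 at an unadjusted p under 0.05, and 0 by edgeR and by DESeq2), with a median of 0.16 in each, beside 18.8% of all genes in WT mice and 4.41% in HT mice. With 1 library left out the WT median ran from 0.063 (without WT lithium male 3) to 0.26 (without WT lithium male 2), and WT fluoxetine female 3 and WT lithium females 1 and 2 also moved it by over 1.5 times. The HT median ran from -0.0087 (without HT lithium male 3), where its sign turned, to 0.28 (without HT lithium female 1), and HT lithium females 4 and 5 also moved it by over 1.5 times.

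**Figure D3:**
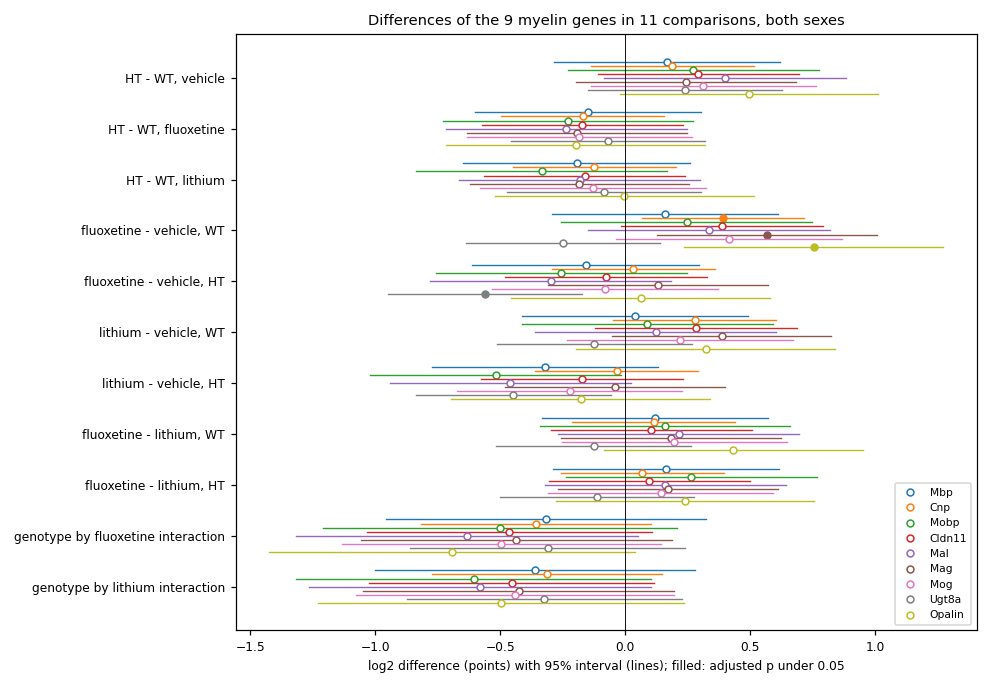
Points are log2 differences of the 9 genes in 11 comparisons over both sexes and lines are 95% intervals; filled points passed an adjusted p of 0.05. The filled points are 4, Opalin, Mag and Cnp above 0 under fluoxetine in WT mice and Ugt8a below 0 under fluoxetine in HT mice, and the interaction terms all lie left of 0 with intervals that cross it.

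Because the 9 genes share most of their spread, each was also set against the mean of the other 8 in the same library. On this scale Ugt8a separated the treatments. Its log2 level minus the mean of the other 8 was -2.05 to -1.44 (median -1.56) in 20 fluoxetine libraries, -1.62 to -1.06 (median -1.32) in 20 lithium libraries and -1.31 to -0.75 (median -1.07) in 20 vehicle libraries. No fluoxetine library overlapped the vehicle libraries, where 0.0112% of the genes tested showed no overlap relative to the myelin mean, and the lithium libraries overlapped both. Among females the values were -1.64 to -1.44 in HT fluoxetine mice and -1.91 to -1.45 in WT fluoxetine mice, against -1.31 to -1.05 in HT vehicle mice and -1.28 to -1.09 in WT vehicle mice, again with no overlap (0.0506% of genes).

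A limma fit with the mean of the other 8 as a covariate, chosen after the data had been seen, gave the same order. It used the same libraries and nearly the same quantity, so it gives sizes of the differences and is not separate support. Against vehicle, Ugt8a fell by 0.60 in WT fluoxetine mice (SE 0.057, adjusted p 1.84e-11, beside 63% of all genes called) and by 0.49 in HT fluoxetine mice (SE 0.055, adjusted p 2.72e-09, beside 43%). Against lithium, it fell by 0.29 in WT fluoxetine mice (SE 0.056, adjusted p 0.000487, beside 20.1%) and by 0.25 in HT fluoxetine mice (SE 0.056, adjusted p 0.0033, beside 5.58%). With the olfactory bulb list added, these 4 differences were -0.53, -0.45, -0.24 and -0.23, and each passed, with adjusted p-values up to 0.0300. With that list, Ugt8a also fell under lithium against vehicle, by 0.29 in WT mice (adjusted p 6.42e-05) and by 0.23 in HT mice (adjusted p 0.00149). Ugt8a was not alone in that fit. Over both sexes Mag rose by 0.21 to 0.27 and Cnp by 0.14 to 0.18 against vehicle, under both drugs in both genotypes, and each passed. Against vehicle, differences that also passed were Mal in HT mice under fluoxetine (-0.17) and lithium (-0.19), Mobp in HT mice under lithium (-0.20) and Cldn11 in WT mice under lithium (0.12). Mobp was also higher under fluoxetine than under lithium in HT mice (0.23). Mag and Cnp stood in another proportion in vehicle males, as given further on, and treatment cannot be told apart from that. In females alone the fluoxetine minus vehicle difference of Ugt8a, without the bulb list, was -0.36 in WT mice (adjusted p 0.00108, beside 40.7%). In HT females it was -0.32 (adjusted p 0.0944, beside 0%). With the olfactory bulb list added it was -0.27 in WT females (adjusted p 0.535). The interaction of genotype and fluoxetine for Ugt8a on this scale was 0.11 (SE 0.080, adjusted p 0.448), beside 0% of all genes called.

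Opalin departed along another axis. At an equal mean of the other 8 it fell by 0.11 log2 units per log2 unit of the olfactory bulb list (SE 0.018, adjusted p by limma 5.35e-07), beside 57.4% of all genes with a slope. Mbp rose by 0.052 (SE 0.0091, adjusted p 4.37e-06) and Mobp by 0.058 (SE 0.011, adjusted p 2.19e-05) along the same list. Without the vehicle males the slopes were -0.11, 0.047 and 0.056, and each passed, beside 53.8% of all genes. On this scale Opalin was higher in WT fluoxetine mice than in WT vehicle mice by 0.45 (adjusted p 0.00104), and with the olfactory bulb list added the difference was -0.07 (adjusted p 0.759).

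**Figure D4:**
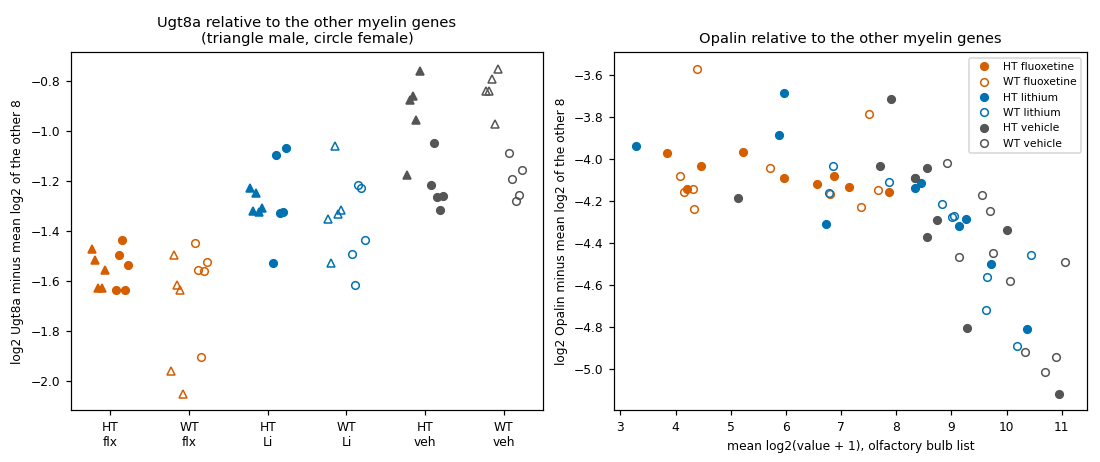
The left panel plots the log2 level of Ugt8a minus the mean log2 level of the other 8 genes for each library by genotype and treatment, and the right panel the same for Opalin against the mean log2(value + 1) of the olfactory bulb list. Fluoxetine libraries lie at -2.05 to -1.44 and vehicle libraries at -1.31 to -0.75 on the left; on the right the lowest Opalin value, -5.12, belongs to a library with a bulb list mean of 10.95.

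Vehicle males also held the members in another proportion. Mag minus the mean of the other 8 was -0.74 to -0.36 in the 10 vehicle males, against -0.23 to 0.28 in the other 50 libraries, with no overlap, which 0.0169% of genes showed relative to the myelin mean. Cnp was at 0.40 to 1.25 on this scale in vehicle males and at 0.97 to 1.64 in the others, while Ugt8a was at -1.18 to -0.75 in vehicle males and at -2.05 to -1.05 in the others. The calls among males, those for Mag, Cnp and Ugt8a included, had vehicle males as the reference. Treatment and this difference cannot be told apart in them. At an equal mean of the other 8, in WT females, the fluoxetine minus vehicle difference of Cnp was -0.10 (adjusted p by limma 0.0181), opposite in sign to that of both sexes, at 0.15 (adjusted p 5.53e-07).

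Other genes of the lineage were counted in fluoxetine against vehicle, where 63.2% of all genes were called in WT mice (31.7% higher, 31.5% lower) and 40.8% in HT mice (20.2% higher, 20.6% lower), and the median of all genes was -0.0058 in WT mice and -0.0019 in HT mice. Of 22 other genes of mature oligodendrocytes, 6 rose and 2 fell in WT mice, with a median of 0.28, a smaller share called than among all genes. Those that rose were S1pr5 at 0.62, Trf at 0.54, Cryab at 0.46, Gpr37 at 0.42, Pllp at 0.41 and Tmem125 at 0.41. Trf is transferrin, which carries iron, and S1pr5 is a sphingosine phosphate receptor of oligodendrocytes. Apod fell by 0.94 and Aspa, which splits N-acetylaspartate, by 0.45, and in HT mice 0 rose and the same 2 fell, Apod by 0.57 and Aspa by 0.44.

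Of 10 enzymes of myelin lipid synthesis, 3 rose and 1 fell in WT fluoxetine mice, beside 63.2% of all genes called. Gal3st1, which adds sulfate to the galactocerebroside that Ugt8a makes, differed by 0.28 (SE 0.12, adjusted p by limma 0.0317), and Fa2h by 0.29 (SE 0.23, adjusted p 0.276). Fdft1, of cholesterol synthesis, rose by 0.19, while Elovl7, a fatty acid elongase, fell by 0.44. In HT fluoxetine mice 1 rose and 3 fell, beside 40.8%.

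Genes of earlier stages were counted against the same shares of all genes, 63.2% in WT mice and 40.8% in HT mice. Of 8 precursor genes, 2 rose and 5 fell in WT fluoxetine mice, with a median of -0.39, and 1 rose and 4 fell in HT fluoxetine mice, with a median of -0.19. Pdgfra, the growth factor receptor of precursors, rose by 0.14 and Cspg4 by 0.32 in WT mice, while Lhfpl3 fell by 0.89 and Vcan by 0.51. Of 9 genes of differentiating cells, 1 rose and 4 fell in WT mice and 0 rose and 3 fell in HT mice, shares called below those of all genes. Enpp6, a marker of newly forming oligodendrocytes, differed by -0.29 in WT mice and by -0.35 in HT mice, and neither passed (adjusted p by limma 0.0864 and 0.0545). Of 10 transcription factors of the lineage, 1 rose and 2 fell in WT mice: Zfp536 rose by 0.50, and Nkx2-2 fell by 0.46 and Tcf7l2 by 0.39. Myrf differed by 0.35 (adjusted p 0.0939) and Sox10 by -0.25 (adjusted p 0.0610).

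Tissue markers moved in the same comparison. All 7 olfactory bulb genes fell in fluoxetine mice of either genotype, with medians of -4.43 in WT mice and -2.42 in HT mice, and 8 of 10 meninges genes fell in WT fluoxetine mice. Of all genes, 31.5% were lower in WT mice and 20.6% in HT mice. Of 10 genes of nodes and paranodes, which neurons and glia both express, 9 rose and 0 fell in WT fluoxetine mice, with a median of 0.34, beside 31.7% of all genes higher. Some precursor and differentiation genes are also expressed by other cells. The part of tissue content in these counts was not tested. Of 5 genes listed for peripheral myelin, 3 were in the table used here. The Schwann cell genes Prx and Ncmap reached at most 55.2 and 25.3 in the 60 libraries. Drp2, the other listed gene in the table, was far higher, at 2532 to 3938.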

How the data were processed

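RNA-seq of mouse prefrontal cortex (TruSeq Stranded mRNA, per the labels' protocols) was available as 1 deposited table of 18088 genes and 60 libraries. Its values behaved as a signal, gene reads divided by a size factor: 100% of the deposited values were whole multiples of 1 step per library (tolerance 1e-06), which gave the reads. Salmon 0.11.2, DESeq2 1.19.11 and build GRCm38 are named, without roles, per the submitters' processing notes. Symbols came from GENCODE vM21, and 11 identifiers had none. Size factors were 0.818 to 1.33. None of the 120 pairs of libraries within a group was a duplicate, and pairs across groups were not checked for this.

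The main test was limma 3.58.1 (R 4.3.3) on log2(value + 1) with a mean-variance trend, 12 group means and all 60 libraries, for genes with 10 or more in at least 5 libraries (17781), with Benjamini-Hochberg adjustment over all of them and a threshold of 0.05. A fold change on this scale understates the change of low genes. Named genes were the 9 members, the 10 genes most alike and, of each other list, up to 4 with the smallest p; further list genes were named after their values were seen, and a few genes under this rule are not reported here. List means are means of log2(value + 1), and slopes were fitted beside the group means. edgeR 4.0.16 and DESeq2 1.42.0 were run as alternatives on the reads of 54 libraries, since the step of 6 lay too near 1 to be read with certainty. The 9 genes and the gene lists were chosen with earlier results of these data known. The fit was also run on simulated counts in which each gene varied independently. Genes here moved together, so that run does not give the rate of false calls in these libraries. Replicate numbers did not pair libraries across groups.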

Additional observations from a re-analysis of the deposited data

Results flagged for a closer look

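In each of 108 sets of 1 gene in 1 group of 5 libraries, the gap of the highest or lowest library to its nearest neighbour was divided by the range of the group. In 9 sets this share was above Dixon's 95% critical value, and chance flags about 1 in 20. The genes move together, so the sets are not independent. WT vehicle male 2 was the lowest of its group for Opalin at 96.6, for Cldn11 at 1358 and for Ugt8a at 978. HT fluoxetine male 2 was the lowest for Mobp at 7588, for Opalin at 197 and for Ugt8a at 964. HT lithium male 3 was the lowest for Mbp at 13407 and for Mobp at 2720. WT fluoxetine female 3 was the highest for Mal at 6483.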

How the results depend on the processing

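Counts of the 9 genes are by adjusted p. For fluoxetine minus vehicle in WT mice (3), the count was 5 with only the compared groups fitted, 0 with the olfactory bulb covariate, with 4 tissue covariates, in females only or without the 3 WT fluoxetine libraries high in Mal, 9 with the layer 6 and subplate covariate, and 1 by edgeR and 1 by DESeq2. In HT mice (1) it was 0 with the bulb, striatum or 4 tissue covariates, without the 5 striatum-rich libraries or in females only, and 6 with the layer 6 covariate, where Ugt8a turned to 0.028. Of that list itself 4 of 7 genes fell under fluoxetine in either genotype, and 3 rose in WT mice. That covariate also gave 3 for lithium minus vehicle in WT mice, 8 and 5 for fluoxetine minus lithium in WT and HT mice, and 4 sex differences (DESeq2 gave 2). Fluoxetine minus lithium in WT mice had 1 with the striatum covariate and 1 without the striatum-rich libraries. Quality weights gave 1 for HT minus WT under vehicle and 1 for the fluoxetine interaction, and males alone gave 3 for lithium minus vehicle in HT mice. Of slopes, the bulb list (0) had 8 with 4 lists together and 1 without the striatum-rich libraries. The meninges list (9) had 0 and 1 there. The choroid plexus list (1, Opalin) had 8 without the striatum-rich libraries and 0 on the linear scale, without vehicle males, with 4 lists together, with a pseudocount of 5 or with a replicate block. For most of these settings, the layer 6 covariate included, the share of all genes called is not given here. The counts there do not set the members apart from other genes. The cause of these changes was not tested.

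With 1 library left out, counts were 1 to 3 for fluoxetine minus vehicle in WT mice (1 without WT vehicle female 2 or WT vehicle male 2), 0 to 1 in HT mice, 0 to 1 for lithium minus vehicle in HT mice, 0 to 3 for sex differences, and 0 to 0 for the others. Of 17781 genes, those drug comparisons called 10491 to 11474, 6005 to 7815 and 3550 to 4699, in that order. Slopes ran 9 to 9 for striatum, 0 to 1 for bulb, 0 to 9 for choroid plexus and 7 to 9 for meninges. All genes with a slope numbered 1155 to 3553 for striatum, 8793 to 9896 for bulb, 0 to 3401 for choroid plexus and 4182 to 6817 for meninges. The choroid plexus run with 9 members, without WT lithium male 2, was the run with 3401 of 17774 genes. Over all genes, HT minus WT under vehicle called 6, and 1 to 6275 with 1 library left out, 6987 with quality weights, and 2215 by limma, 2543 by edgeR and 3494 by DESeq2 on 54 libraries. Fluoxetine minus vehicle in WT mice called 11239, and 3447 with the bulb covariate, 9789 by limma, 9772 by edgeR and 9792 by DESeq2 on 54 libraries. Ugt8a at an equal myelin mean kept its direction and its call in each setting run over both sexes.

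The replicate block left the counts for all 11 comparisons as they were, for example 3 for fluoxetine minus vehicle in WT mice. Numbers gave no sign of pairing: deviations of 330 same-number pairs correlated at 0.0061 on average, 68 above 0.1, and 16 of 60 libraries correlated best with their own number.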

Other observations

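Mal split the WT fluoxetine libraries. It was at 6483 in female 3, 6496 in male 1 and 6738 in male 5, and at 3727 to 4463 in the other 7. The same 3 libraries were the highest of the 10 for Mobp, at 18662, 17952 and 17651 against 11387 to 14264, and for Opalin, at 372, 473 and 530 against 251 to 309. Ugt8a was not high in them, at 1422, 1461 and 1355 against 1240 to 1579 in the other 7, and relative to the mean of the other 8 genes it was at -2.05 to -1.91. No label sets these 3 libraries apart, and they were noticed after their values were seen. Without them, 0 of 9 genes passed by limma for fluoxetine against vehicle in WT mice, where Opalin differed by 0.57 (adjusted p 0.0871), Mag by 0.52 (adjusted p 0.0701) and Cnp by 0.31 (adjusted p 0.142), while Ugt8a at an equal mean of the other 8 fell by 0.50 (adjusted p 5.99e-10).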
